A study of Mus musculus with 12 samples.

Results

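The genes described here are 10 enzymes of mitochondrial fatty acid oxidation, Cpt1a, Cpt2, Acadvl, Acadl, Acadm, Hadha, Hadhb, Echs1, Hadh and Acaa2. They were read in cultured mouse macrophages kept without monophosphoryl lipid A (MPLA), or taken during or after exposure to it. They were found by gene symbol in each of 3 comparison tables, and all 10 had a row and an adjusted p-value in every table, of 20884 genes listed in all 3 tables and 15038 with an adjusted p-value in all 3. MPLA is a lipid A derivative of low toxicity that signals through Toll-like receptor 4. The macrophages were grown for 7 days from the bone marrow of male C57BL/6 mice aged 8 to 16 weeks, with 10% serum and the growth factor M-CSF at 10 ng/mL, which was kept in the medium throughout. There were 12 RNA-seq libraries, 3 in each of 4 groups. The groups were a control without MPLA, 4 h of MPLA, 24 h of MPLA, and cells taken 3 d after priming had ended. The labels give neither the length of priming of the last group nor the time at which controls were taken. They also do not say if replicate libraries were from different mice or cultures, so the p-values reflect only library-to-library spread, and that spread may be technical.

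Fatty acids enter the mitochondrion as carnitine esters, made by carnitine palmitoyltransferase 1 (Cpt1a, the liver isoform) on the outer membrane and turned back into acyl-CoA by carnitine palmitoyltransferase 2 (Cpt2) on the inner membrane. Each turn of beta-oxidation then takes 4 kinds of enzyme in sequence, namely an acyl-CoA dehydrogenase, an enoyl-CoA hydratase, a hydroxyacyl-CoA dehydrogenase and a thiolase, and shortens the chain by an acetyl unit. Long chains are handled at the inner membrane by the very long-chain dehydrogenase (Acadvl) and the trifunctional protein, whose alpha subunit (Hadha) carries the hydratase and dehydrogenase and whose beta subunit (Hadhb) the thiolase. Shorter chains are handled by soluble matrix enzymes, the medium-chain dehydrogenase (Acadm), the short-chain hydratase (Echs1), the hydroxyacyl-CoA dehydrogenase (Hadh) and the thiolase Acaa2. Macrophage activation by lipopolysaccharide is known for a shift towards glycolysis, while fatty acid oxidation is usually associated with alternative activation.

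Across the 3 comparisons the enzymes were mostly lower than in the controls. Of the 30 values, 10 genes at 3 times, 24 were lower, 3 higher and 3 not called at a DESeq2 adjusted p under 0.05 in the authors' deposited tables. With the edgeR columns of the authors' deposited tables, 29 were lower, 0 higher and 1 not called at an adjusted p under 0.05. Beside this, DESeq2 called 31.0%, 32.2% and 25.8% of all tested genes lower at 4 h, 24 h and 3 d. EdgeR called 50.1%, 41.8% and 27.7% of all listed genes lower. At an unadjusted edgeR p under 0.05, 10 were lower and 0 higher at each time. Among all tested genes, 74.7%, 69.0% and 62.6% had an edgeR log2 change below 0 at 4 h, 24 h and 3 d. Cpt1a, Cpt2, Acadm, Hadh, Acaa2 and Echs1, 6 of the 10, were called lower at each time with DESeq2 in the authors' deposited tables, against 14.3% of the genes with an adjusted p-value in all 3. With edgeR this held for 9 of 10, all but Acadvl, against 24.2% of the genes listed in all 3 tables. Shares called by edgeR and baySeq are over all listed genes, also those without a DESeq2 adjusted p-value. They are therefore not on the same base as the DESeq2 shares, or as the members, which all had one. The 3 comparisons use the same 3 control libraries, so their values are given side by side and not as independent support of each other.

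The tables hold no value per library and no expression level. Each gene is therefore given by its log2 fold change, MPLA over control, with the standard error (SE) implied by its DESeq2 p-value, each time for 3 libraries against 3. The tables listed 21893 genes at 4 h, 21923 at 24 h and 23248 at 3 d, of which 17523, 16442 and 15111 had a DESeq2 adjusted p-value. Depth is unknown. The offset between edgeR and the unscaled ratio in the authors' deposited tables gave a relative depth, MPLA over control, of 0.859 at 4 h, 0.934 at 24 h and 2.32 at 3 d. With DESeq2 the median tested gene stood at -0.04, -0.05 and -0.02 in the authors' deposited tables, in order of time, and with edgeR it stood at -0.97, -0.46 and -0.15. Values near 0 therefore depend on the scaling. All 8 macrophage markers, among them Adgre1, Csf1r and Cd68, had reads in both groups of every table, and they moved both ways, with 6, 4 and 5 called higher and 1, 4 and 3 lower at 4 h, 24 h and 3 d with DESeq2. Csf1r, the receptor of M-CSF, stood at -1.01, -1.52 and -0.54 and Fcgr1, an antibody receptor, at 3.07, 3.70 and 0.98 in the authors' deposited tables. Lyz2, a lysozyme, was not called at 4 h with DESeq2 (0.02, and -0.91 with edgeR) and fell at 24 h (-1.50) and 3 d (-1.43). Mertk, a receptor for apoptotic cells, stood at 0.79 with DESeq2 and -0.14 with edgeR at 4 h, and fell at 24 h (-1.69) and 3 d (-0.71), in the authors' deposited tables. Of 6 T cell markers, 5 had no row in the 4 h table, and Cd4 stood at -0.91, -1.35 and 1.01. Of 6 B cell markers, 1, 2 and 1 were called lower and 0, 0 and 1 higher with DESeq2, among them Ighm at -1.75, -8.98 and -6.42 in the authors' deposited tables. Of 6 mast cell and basophil markers, 4 had no row, Kit was called lower at each time (-1.42, -4.30 and -0.77), and Cpa3 was called lower at 24 h, where it was listed at 0 after MPLA, in the authors' deposited tables. Of 6 adipocyte markers none had an adjusted p-value in any table. Of 6 fibroblast and stromal markers, 3 were called higher at 4 h, 3 at 24 h and 1 at 3 d, and of 6 dendritic cell markers 3, 2 and 0, with 1 called lower at 24 h, Zbtb46 (-1.50). Of the 8 neutrophil markers, 1 was called higher and 2 lower at 24 h, 2 were higher at 3 d, and of the 4 tested at 4 h none was called with DESeq2. In bulk RNA a change in the mix of cells and a change of RNA per cell cannot be told apart, and the part of these markers in the results was not tested.

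The promoter sequences of the members at the extremes of the 4 h comparison, and the stretch between the neighbouring genes Hadha and Hadhb, are printed from RefSeq on build GRCm38.p6. There 9 of the 10 members matched, and Acaa2 had no promoter entry. Acadm (ENSMUSG00000062908) lies on chromosome 3 at 153922357 to 153944632, and Echs1 (ENSMUSG00000025465) on chromosome 7 at 140105710 to 140116476, both on the minus strand. Acadl (ENSMUSG00000026003) lies on chromosome 1 at 66830839 to 66863277, minus strand. Hadha (ENSMUSG00000025745, chromosome 5, 30118304 to 30155162, minus strand) and Hadhb (ENSMUSG00000059447, chromosome 5, 30155248 to 30184593, plus strand) stand head to head with 85 bases between them. The first 2 sequences have in capitals the nuclear receptor hexamer AGGTCA or its reverse complement, and the other 2 the Sp1 box GGGCGG or its reverse complement. The stretches are chr3:153944644-153944893, chr7:140116477-140116671 and chr1:66863310-66863559, all minus strand, and chr5:30155163-30155247 on the plus strand, each upstream of the annotated genes.
Acadm: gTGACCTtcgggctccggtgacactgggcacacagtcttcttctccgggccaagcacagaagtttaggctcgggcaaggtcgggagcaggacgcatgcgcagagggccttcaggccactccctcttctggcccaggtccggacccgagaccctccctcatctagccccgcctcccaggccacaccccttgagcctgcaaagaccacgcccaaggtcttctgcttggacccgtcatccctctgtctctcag
Echs1: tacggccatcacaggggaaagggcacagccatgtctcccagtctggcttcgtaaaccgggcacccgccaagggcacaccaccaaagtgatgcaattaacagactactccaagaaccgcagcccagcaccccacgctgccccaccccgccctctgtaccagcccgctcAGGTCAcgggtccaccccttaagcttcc
Acadl: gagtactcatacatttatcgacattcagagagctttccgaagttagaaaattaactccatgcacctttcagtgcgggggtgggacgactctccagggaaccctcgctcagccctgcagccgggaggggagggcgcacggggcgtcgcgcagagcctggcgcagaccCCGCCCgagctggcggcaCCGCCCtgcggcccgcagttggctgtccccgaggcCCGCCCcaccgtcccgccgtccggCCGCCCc
Hadha-Hadhb interval: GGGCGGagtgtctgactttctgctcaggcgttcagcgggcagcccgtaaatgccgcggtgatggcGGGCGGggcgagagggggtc

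In windows from 250 bases before to 50 bases after the start, on either strand, AGGTCA was present in 4 of the 9 member promoters, those of Acadm, Echs1, Acadvl and Cpt1a, against 16.3% of 32851 promoter windows. It lay at position -249 in Acadm, -83 in Echs1, -87 in Acadvl and -94 in Cpt1a, counted from the RefSeq start site. That start can lie inside the gene extent given above, as for Echs1, whose printed stretch ends before it. GGGCGG was present in 7 of the 9 scanned, lacking in Acadm and Acadvl, against 35.7% of windows, with 4 matches in Acadl. Acaa2 was not scanned. The windows of Hadha and Hadhb overlap, and the Hadha match at -188 is the same box as the Hadhb match at -90. CCAAT was present in 2 of 9, Hadh and Cpt1a, against 37.4%. The direct repeat of AGGTCA with 1 free base between, known as the site of PPAR with RXR, the longer site TCAAGGTCA, known from estrogen-related receptors, and the palindromic NRF1 site had no match in these 9 windows, against 0.0396%, 0.423% and 0.971% of all windows. The direct repeat and TCAAGGTCA both contain AGGTCA. The 4 genes with AGGTCA had DESeq2 log2 changes at 4 h from -1.56 (Echs1) to -0.27 (Acadvl) in the authors' deposited table. Acadl and Hadha, which DESeq2 called higher and edgeR lower there, had none in their window. Hadh (-1.10) and Cpt2 (-0.23), both called lower, had none either, nor did Hadhb (-0.12), which DESeq2 did not call. Any link between the hexamer and these changes was not tested.

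After 4 h of MPLA the enzymes split. Echs1, Acadm and Hadh fell at least 2-fold, Acaa2 fell less, the carnitine step genes and Acadvl fell slightly, and Acadl and Hadha were called higher with DESeq2 but lower with edgeR. With DESeq2 7 of 10 were called lower and 2 higher in the authors' deposited table, where 31.0% of all tested genes were lower and 31.8% higher. With edgeR all 10 were lower, against 50.1% of all listed genes. The median of the 10 log2 changes was -0.29 with DESeq2, beside -0.04 for all tested genes, and -1.22 with edgeR beside -0.97, in the authors' deposited table. The values ran from -1.56 to 0.76 with DESeq2.

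**Figure D1:**
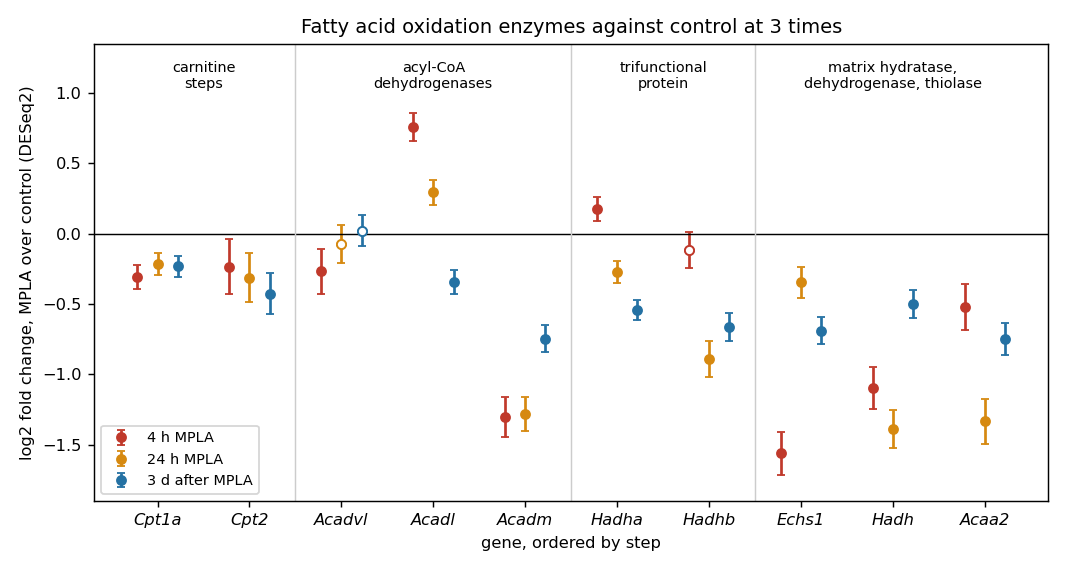
Log2 fold change (MPLA over control, DESeq2 columns of the authors' deposited tables) of the 10 enzymes, ordered by step, at 4 h, 24 h and 3 d after MPLA, with 95% intervals from the implied standard error (3 against 3 libraries). Filled points have an adjusted p under 0.05, open points do not. Echs1 is lowest at 4 h at -1.56, Acadl is above 0 at 4 h and 24 h, and 9 of the 10 lie below 0 at 3 d.

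Among the carnitine steps, Cpt1a (ENSMUSG00000024900, chromosome 19, 3322334 to 3385733) stood at -0.31 ± 0.04 (SE) at 4 h (DESeq2 adjusted p = 9.71e-12) in the authors' deposited table. That put it at 80.8% of the control level. Cpt2 (ENSMUSG00000028607, chromosome 4, 107903981 to 107923610) stood at -0.23 ± 0.10 in the authors' deposited table (DESeq2 adjusted p = 0.0317), or 85.0% of control, and missed a threshold of 0.01. Both lay near the middle of all genes, 41.9% and 44.1% of which had a lower log2 change.

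Of the dehydrogenases at 4 h, Acadm fell 2.47-fold (-1.30 ± 0.07, DESeq2 adjusted p = 3.84e-69) in the authors' deposited table. Acadvl (ENSMUSG00000018574, chromosome 11, 70010183 to 70015411) fell 1.20-fold (-0.27 ± 0.08, DESeq2 adjusted p = 0.00176) in the authors' deposited table. Its value is uncertain, since 42.9% of its exonic bases overlap exons of Dvl2 on the opposite strand, and no source states if counting used strand. Dvl2, a signalling gene of the Wnt pathway, stood at -1.04, -0.79 and -0.32 at 4 h, 24 h and 3 d in the authors' deposited tables. Acadl, the long-chain dehydrogenase, was 1.69-fold higher with DESeq2 (0.76 ± 0.05, adjusted p = 8.65e-50) and 1.13-fold lower with edgeR (-0.18, adjusted p = 1.32e-05) in the columns of the authors' deposited table. It was the highest of the 10 with either tool, above 72.3% of all tested genes with DESeq2 and 71.6% with edgeR.

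The trifunctional protein subunits were near the middle of all genes at 4 h. Hadha stood at 0.18 ± 0.04 with DESeq2 (adjusted p = 9.445e-05) and at -0.76 with edgeR (adjusted p = 6.09e-91), and baySeq gave it a likelihood of no change of 0.996, all in the authors' deposited table. Hadhb stood at -0.12 ± 0.07 (DESeq2 adjusted p = 0.114) in the authors' deposited table, with a 95% interval from -0.24 to 0.01, and -1.05 with edgeR. The Hadhb value is uncertain, since 19.7% of its 50-base windows are shared with transcripts of other genes, chiefly the processed pseudogene Gm13910, whose own row stood at -0.53 ± 0.48 at 4 h and was called at no time (DESeq2 adjusted p = 0.339, 0.133 and 0.157 at 4 h, 24 h and 3 d) in the authors' deposited tables.

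The soluble enzymes of the later steps were lower at 4 h. Echs1, the short-chain enoyl-CoA hydratase, fell 2.96-fold (-1.56 ± 0.08, DESeq2 adjusted p = 2.02e-91) in the authors' deposited table, to 33.8% of control. Hadh (ENSMUSG00000027984, chromosome 3, 131233419 to 131272101), which oxidizes the hydroxyl group of medium and short chains, fell 2.14-fold (-1.10 ± 0.08, DESeq2 adjusted p = 1.74e-45) in the authors' deposited table. Acaa2 (ENSMUSG00000036880, chromosome 18, 74779197 to 74806208), a mitochondrial thiolase, fell 1.44-fold (-0.52 ± 0.08, DESeq2 adjusted p = 1.08e-09) in the authors' deposited table. Together with Acadm these were the 4 lowest of the 10, and their intervals did not reach those of the other 6 except where the interval of Acaa2, from -0.68 to -0.36, overlapped those of Cpt1a, Cpt2 and Acadvl. The grouping by chain length and solubility was made after the values were seen, and it carries no test. It leaves out Acadl, the highest of the 10 at 4 h, so it does not say that soluble enzymes as a whole were lower.

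**Figure D2:**
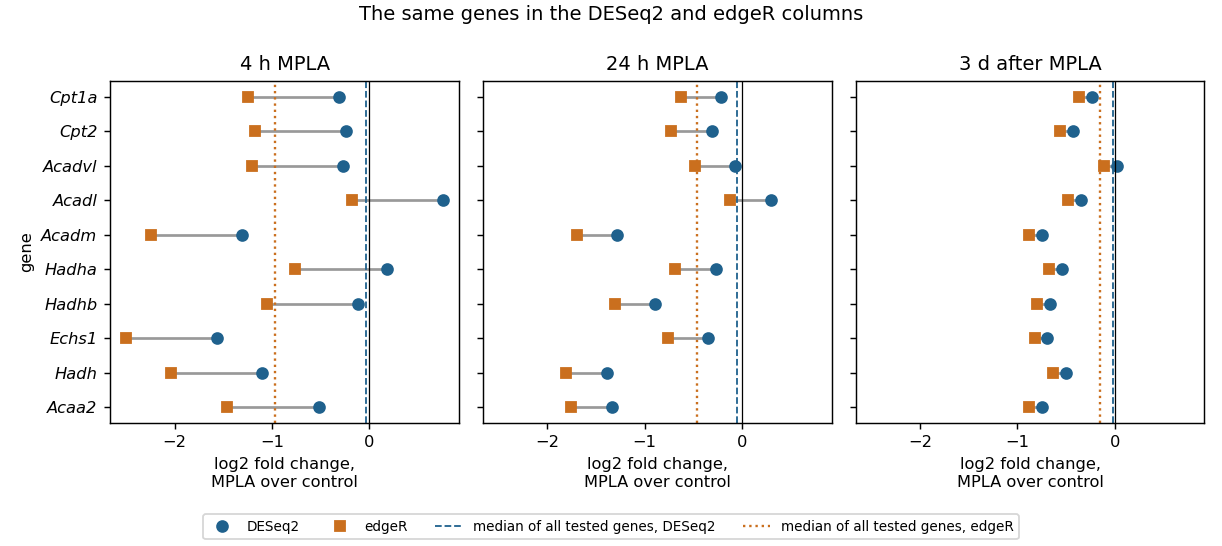
Log2 fold change of each enzyme in the DESeq2 columns (circles) and the edgeR columns (squares) of the authors' deposited tables, 1 panel per comparison, with the median of all tested genes as dashed (DESeq2) and dotted (edgeR) lines. The 2 columns differ by nearly 1 constant in each panel, largest at 4 h, so that Acadl and Hadha lie right of 0 with DESeq2 and left of 0 with edgeR while the order of the genes is nearly kept.

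After 24 h of MPLA Hadh, Acaa2 and Acadm were the lowest at 38.2%, 39.6% and 41.2% of control, and Hadhb had joined the lower genes. Acadl stayed above 0 with DESeq2, and Acadvl was not called. With DESeq2 8 of 10 were lower and 1 was higher in the authors' deposited table, where 32.2% of all tested genes were lower and 32.4% higher. With edgeR all 10 were lower against 41.8% of all listed genes. The median log2 change was -0.33, beside -0.05 for all tested genes, in the authors' deposited table.

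At 24 h Cpt1a had a log2 change of -0.22 ± 0.04 (DESeq2 adjusted p = 1.85e-07) and Cpt2 of -0.31 ± 0.09 (adjusted p = 7.96e-04) in the authors' deposited table, so the carnitine steps stayed at 86.1% and 80.6% of control. Acadm fell 2.43-fold (-1.28 ± 0.06, DESeq2 adjusted p = 4.30e-92) in the authors' deposited table. Acadl stood at 0.29 ± 0.05 with DESeq2 (adjusted p = 4.58e-10) and at -0.12 with edgeR (adjusted p = 0.00159), and baySeq gave it a likelihood of no change of 0.978, all in the authors' deposited table. Acadvl stood at -0.07 ± 0.07 (DESeq2 adjusted p = 0.385) and at -0.48 with edgeR (adjusted p = 2.40e-20) in the authors' deposited table.

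The trifunctional protein subunits differed in size at 24 h. Hadha fell 1.21-fold (-0.27 ± 0.04, DESeq2 adjusted p = 6.90e-11) and Hadhb 1.85-fold (-0.89 ± 0.07, DESeq2 adjusted p = 6.77e-41) in the authors' deposited table. Their 95% intervals, -0.35 to -0.19 and -1.02 to -0.76, did not overlap, although only 85 bases lie between the 2 annotated genes. The difference itself was not tested. Of the soluble enzymes, Hadh fell 2.62-fold (-1.39 ± 0.07, DESeq2 adjusted p = 2.94e-89) and Acaa2 2.52-fold (-1.33 ± 0.08, DESeq2 adjusted p = 1.41e-59) in the authors' deposited table. Echs1, the lowest at 4 h, stood at 78.7% of control at 24 h (-0.35 ± 0.06, DESeq2 adjusted p = 2.48e-09) in the authors' deposited table. The change of Echs1 between 4 h and 24 h was not tested, because each table was normalized on its own.

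At 3 d after priming 9 of 10 enzymes were lower and 0 higher with DESeq2, also at an unadjusted p under 0.05, in the authors' deposited table, where 25.8% of all tested genes were lower and 29.5% higher. With edgeR 9 were lower and 0 higher against 27.7% of all listed genes lower. None of the changes was at least 2-fold. Leaving out Acadvl, they ran from -0.75 to -0.23 with DESeq2 in the authors' deposited table. The median was -0.52, beside -0.02 for all tested genes, and Acaa2, Acadm, Echs1 and Hadhb had 9.26%, 9.30%, 10.7% and 11.4% of tested genes below them.

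Acaa2 stood at 59.5% of control at 3 d (-0.75 ± 0.06, DESeq2 adjusted p = 3.02e-38), and Acadm at 59.6% (-0.75 ± 0.05, DESeq2 adjusted p = 3.57e-51), in the authors' deposited table. Echs1 was at 62.0% of control (-0.69 ± 0.05, DESeq2 adjusted p = 8.44e-45) and Hadhb at 63.1% (-0.67 ± 0.05, DESeq2 adjusted p = 3.64e-39) in the authors' deposited table. The intervals of these 4 overlapped one another. Those of Hadha and Hadh each overlapped those of Echs1 and Hadhb, and that of Cpt2 overlapped that of Hadhb. Hadha followed at -0.54 ± 0.04 (DESeq2 adjusted p = 1.06e-47), Hadh at -0.50 ± 0.05 (adjusted p = 8.48e-21) and Cpt2 at -0.43 ± 0.07 (adjusted p = 2.99e-08) in the authors' deposited table. Acadl, above 0 at the earlier times with DESeq2, was lower at 3 d with both tools, at -0.35 ± 0.04 with DESeq2 (adjusted p = 3.84e-15) and -0.48 with edgeR (adjusted p = 4.56e-38), columns of the authors' deposited table. Cpt1a was at -0.23 ± 0.04 (DESeq2 adjusted p = 1.66e-09) in the authors' deposited table, its level being 85.1% of control against 80.8% at 4 h and 86.1% at 24 h. Acadvl stood at 0.02 ± 0.06 (DESeq2 adjusted p = 0.763), with an interval from -0.09 to 0.13, in the authors' deposited table. By the baySeq columns of the authors' deposited table, 4 of 10 were called lower at 3 d, Acadm, Hadhb, Acaa2 and Echs1, against 4.84% of all listed genes. Among the members that only DESeq2 and edgeR called lower, baySeq gave a high likelihood of no change to Cpt1a (0.993), Acadl (0.972), Cpt2 (0.930) and Hadh (0.803). For Hadha it was 0.445.

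**Figure D3:**
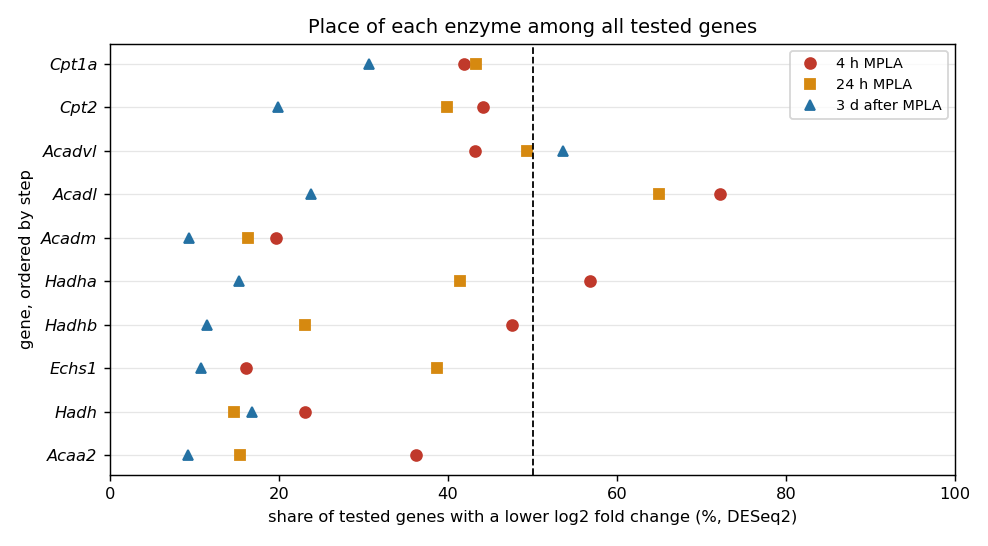
Share of all tested genes (percent, DESeq2 columns of the authors' deposited tables) with a lower log2 fold change than each enzyme, at 4 h (circles), 24 h (squares) and 3 d (triangles), with the dashed line at 50%. At 3 d Acaa2 and Acadm have 9.26% and 9.30% of genes below them, against 36.2% and 19.6% at 4 h, and Acadvl lies near the middle at each time.

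Changes of at least 2-fold were few. Echs1, Acadm and Hadh passed that size at 4 h, where 18.5% of all tested genes were called lower by as much, and Hadh, Acaa2 and Acadm at 24 h, where 16.4% were, in the authors' deposited tables. At 3 d 0 of 10 did, against 5.20% of all genes. So a larger share of the members than of all genes was lower at 3 d, while the sizes stayed below 2-fold.

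The other genes of the pathway were read from lists chosen with earlier results of these data known, and they are described by counts. Of all tested genes, DESeq2 called 31.8%, 32.4% and 29.5% higher and 31.0%, 32.2% and 25.8% lower at 4 h, 24 h and 3 d in the authors' deposited tables. The edgeR counts of these lists stand beside 50.1%, 41.8% and 27.7% of all listed genes called lower with edgeR. Of 13 other mitochondrial beta-oxidation and auxiliary genes, 3 rose and 9 fell at 4 h, 2 and 7 did at 24 h, and 1 and 6 at 3 d, with DESeq2 in the authors' deposited tables. Their medians were -0.38, -0.60 and -0.08, and with edgeR 0, 1 and 0 rose and 12, 11 and 10 fell. Acads, the short-chain acyl-CoA dehydrogenase, fell at each time, at -1.15, -1.15 and -0.61 in the authors' deposited tables. Acat1, the thiolase that splits acetoacetyl-CoA, stood at -0.27, -1.10 and -0.76 and was the lowest of the list at 3 d. Eci2, an enoyl-CoA isomerase, was the highest at 4 h and 24 h, at 0.88 and 0.53 with DESeq2 and -0.06 and 0.12 with edgeR, in the authors' deposited tables. Acad12 (-3.23) was lowest at 4 h and Acot2 (-2.05), an acyl-CoA thioesterase, at 24 h, and Hsd17b10 (0.24) was highest at 3 d in the authors' deposited tables. Acad9 (0.79 and -0.14) and Acadsb (0.26 and -0.67) were called in opposite directions by DESeq2 and edgeR at 4 h.

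Electron transfer flavoprotein takes the electrons of the acyl-CoA dehydrogenases, and its dehydrogenase Etfdh passes them to ubiquinone. Etfdh fell at each time, at -0.84, -0.45 and -0.33 in the authors' deposited tables. Etfb stood at -0.07 and was not called at 4 h, then fell at 24 h (-0.59) and 3 d (-0.35) in the authors' deposited tables. Etfa was called in opposite directions at 4 h, 0.61 with DESeq2 and -0.33 with edgeR, was not called at 24 h (-0.06) with DESeq2, and fell at 3 d (-0.42) in the authors' deposited tables. So all 3 genes were called lower at 3 d, beside 25.8% of all tested genes.

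The listed genes around the carnitine steps did not move as 1 group. Of the 10 genes of carnitine uptake, carnitine esters and acyl-CoA synthetases, 9 were tested at each time, and 3, 4 and 3 rose and 5, 4 and 3 fell at 4 h, 24 h and 3 d with DESeq2 in the authors' deposited tables. With edgeR 2, 3 and 4 rose and 7, 6 and 4 fell. At 3 d their DESeq2 counts, 3 of 9 each way, were near the 29.5% higher and 25.8% lower of all tested genes. Acsl1, which activates long-chain fatty acids to acyl-CoA, was far higher at each time, by 3.62, 4.66 and 3.22 on the log2 scale, or 12.3-fold, 25.2-fold and 9.34-fold, in the authors' deposited tables. Its relatives Acsl5 (1.86, 2.04 and 0.60) and Acsl4 (0.64, 1.16 and 0.77) were higher too with DESeq2, but Acsl4 stood at -0.30 with edgeR at 4 h, in the authors' deposited tables. Acsl3 fell at each time and was lowest at 4 h (-2.94), Cpt1c was lowest at 24 h (-1.54), and Cpt1b, not called, was lowest at 3 d (-0.88). Slc25a20, the carrier that exchanges acylcarnitine for carnitine, stood at -0.47, 0.19 and 0.02 with DESeq2 and at -1.41, -0.23 and -0.10 with edgeR, in the authors' deposited tables. Slc22a5, the plasma membrane carnitine transporter, fell at each time, at -0.67, -0.44 and -0.37 in the authors' deposited tables. Crat, carnitine acetyltransferase, also fell at each time, at -1.91, -1.01 and -0.63.

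Malonyl-CoA inhibits carnitine palmitoyltransferase 1, acetyl-CoA carboxylase (Acaca, Acacb) makes it, Mlycd removes it, and AMP-activated kinase (AMPK) restrains the carboxylase. Acaca was called higher with DESeq2 at each time, at 0.47, 0.49 and 0.24, but with edgeR it was lower at 4 h (-0.46) and not called at 24 h (0.08) or 3 d (0.11), in the authors' deposited tables. Mlycd fell at each time, at -0.94, -1.12 and -0.46 in the authors' deposited tables. Of the 9 genes of this list, 3 rose at each time, near the 31.8%, 32.4% and 29.5% of all tested genes, and 5, 6 and 5 fell, beside 31.0%, 32.2% and 25.8%, with DESeq2, while 1, 1 and 2 rose and 7, 6 and 5 fell with edgeR. Prkag2, an AMPK gamma subunit, was lowest at each time, at -4.10, -2.54 and -0.81 in the authors' deposited tables. Prkaa1, the catalytic alpha 1 subunit, stood at 0.26, 0.62 and 0.44 with DESeq2 and at -0.68 with edgeR at 4 h. Prkaa2 was highest at 4 h (1.98 ± 0.37) and at 3 d (0.71 ± 0.30) and was called lower at 24 h (-1.48 ± 0.60) in the authors' deposited tables. Its standard errors were wide, and the DESeq2 adjusted p was 0.0234 at 24 h and 0.0364 at 3 d.

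More genes of peroxisomal oxidation and of ketone body and propionyl-CoA metabolism were called lower than higher, where 31.0%, 32.2% and 25.8% of all tested genes were lower at 4 h, 24 h and 3 d. Of 12 peroxisomal genes, 11 were tested, and 1, 3 and 2 rose and 7, 8 and 6 fell at 4 h, 24 h and 3 d with DESeq2 in the authors' deposited tables, with medians of -0.78, -0.59 and -0.13. With edgeR 0, 0 and 2 rose and 11, 10 and 7 fell. Abcd2, a peroxisomal acyl-CoA transporter, was lowest at each time, at -5.63, -4.10 and -2.98 in the authors' deposited tables. Acaa1a was highest at 4 h and 24 h, at 0.73 and 0.33 with DESeq2 but -0.20 and -0.08 with edgeR, and Ehhadh was highest at 3 d (0.81). Abcd3 (0.18 and -0.24) was called in opposite directions by DESeq2 and edgeR at 24 h in the authors' deposited table. Of 8 ketone body and propionyl-CoA genes, 7 were tested and 5 fell at each time with DESeq2 in the authors' deposited tables, and none rose, nor with edgeR, where 7, 7 and 6 fell. Pccb, a subunit of propionyl-CoA carboxylase, was lowest at 24 h (-3.40) and Oxct1, which uses ketone bodies, at 3 d (-0.82), in the authors' deposited tables. The highest of that list, Oxct1 at 4 h (-0.02), Pcca at 24 h (0.07) and Bdh1 at 3 d (-0.00198), were not called with DESeq2, while edgeR called Oxct1 (-0.96) and Pcca (-0.35) lower there, in the authors' deposited tables.

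**Figure D4:**
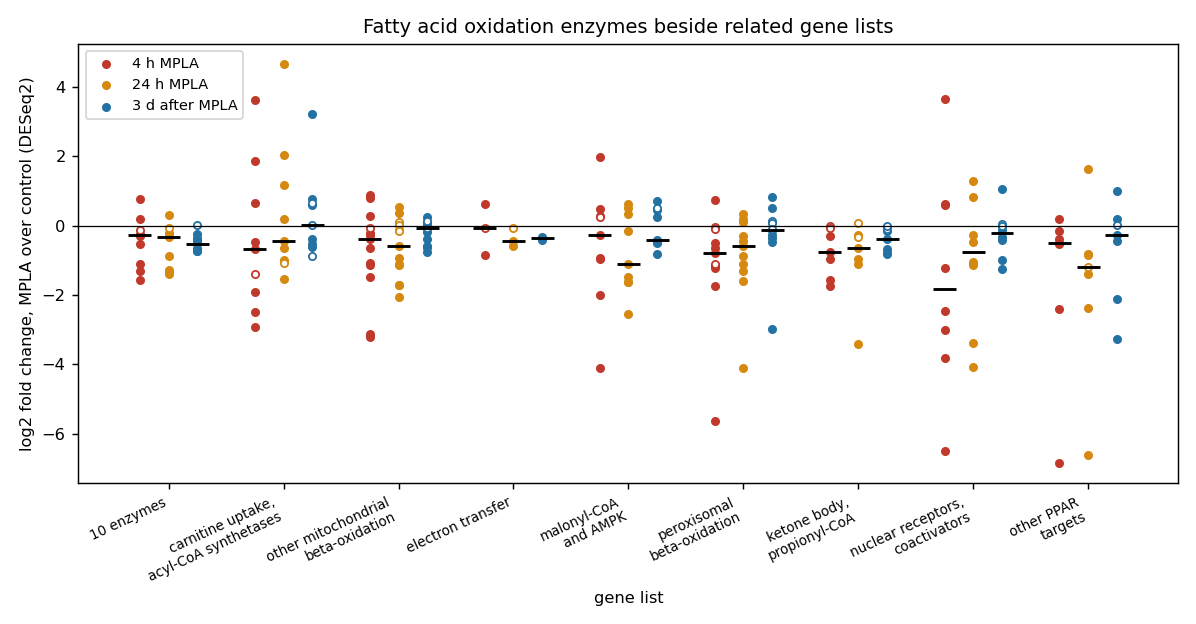
Log2 fold change (DESeq2 columns of the authors' deposited tables) of the 10 enzymes and of the tested genes with reads in both groups of 8 related lists, at 4 h, 24 h and 3 d, with filled points for an adjusted p under 0.05, open points for the rest and a bar at each median. The enzymes span -1.56 to 0.76, while over the lists Acsl1 (4.66 at 24 h) is highest and Angptl4 (-6.83 at 4 h) lowest.

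Of the 10 nuclear receptors and cofactors known to act on these genes, 5 fell and 3 rose at 4 h with DESeq2 in the authors' deposited table, where 31.0% of all tested genes were lower and 31.8% higher. Peroxisome proliferator-activated receptors (PPARs) bind DNA with a retinoid X receptor (RXR) and are known to drive fatty acid oxidation genes. Pparg fell at each time, at -3.00, -3.39 and -1.01, and so did Ppard, at -2.45, -0.48 and -0.42, in the authors' deposited tables. Rxra stood at -3.83, -1.04 and 0.06 with DESeq2, was at -0.07 with edgeR at 3 d, and was called by neither there. Ppara was listed at 0 after MPLA at each time and had no adjusted p-value, and Ppargc1a was listed at 0 at 4 h and 24 h, so neither is given a fold. Lpin1, a phosphatidate phosphatase that also acts as a coactivator, was lowest of the list at each time, at -6.51, -4.09 and -1.25 in the authors' deposited tables. Ppargc1b, a coactivator of mitochondrial genes, went the other way and was highest at each time, at 3.66, 1.27 and 1.06 with DESeq2 and 2.73, 0.87 and 0.99 with edgeR. Esrra, an orphan receptor of mitochondrial genes, stood at 0.62, 0.83 and -0.01 with DESeq2 and at -0.31, 0.42 and -0.14 with edgeR, and Nrip1, a corepressor, turned from 0.58 to -0.36 between the tools at 4 h. Over the 3 times, 3, 2 and 1 of the 10 rose and 5, 6 and 5 fell among 9, 8 and 8 tested with DESeq2 in the authors' deposited tables. Of the 9 PPAR targets outside the pathway, 1, 1 and 2 rose and 6, 6 and 4 fell among 8, 8 and 7 tested, beside 31.8%, 32.4% and 29.5% of all tested genes higher and 31.0%, 32.2% and 25.8% lower, with DESeq2 in the authors' deposited tables. Angptl4, a lipase inhibitor, was lowest at each time, at -6.83, -6.61 and -3.27 in the authors' deposited tables, and Hilpda, a lipid droplet protein, was highest at 24 h (1.63) and 3 d (0.99). Cd36, a fatty acid transporter, stood at 0.19, -0.83 and -0.44 with DESeq2 and at -0.75 with edgeR at 4 h.

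The genes whose changes lay nearest to those of the members were sought among 15028 others with an adjusted p-value in all 3 tables, by Euclidean distance over the 3 DESeq2 log2 changes. Nearest to Cpt1a were Gm17146 (distance 0.036), Usp27x (0.047) and Setmar (0.049). Nearest to the median of the 10 members were Rad21 (0.033), Pnrc2 (0.089) and Polr2j (0.11). With 3 values that share their controls, such nearness is a description of these tables.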

How the data were processed

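RNA from 12 libraries was measured with a stranded kit for polyadenylated RNA, per the labels' protocols. Build mm10 and the authors' tools (TopHat2, HTSeq, DESeq, DESeq2, edgeR and bcl2fastq, no versions) come from the submitters' processing notes. Strand use, other counting settings and the annotation release were not given in the sources used here. The deposited columns are, per the file headers, log2 fold changes from the authors' DESeq2 and edgeR runs, an unscaled log2 ratio, p-values and adjusted p-values, and baySeq scores (a likelihood of no change and its error rate). The deposited log2 values are control over MPLA, and the sign was turned here, since genes that lipid A induces were strongly negative.

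The tables hold no counts or values per library, so depth is unknown and no model was refitted. A gene was called where the authors' DESeq2 adjusted p, over all genes of a table, was under 0.05. The alternatives were the authors' edgeR columns, baySeq, agreement of all 3 methods, adjustment over all deposited p-values, a threshold of 0.01, a 2-fold minimum, and 2 other centrings. Standard errors were taken as the log2 change divided by the normal quantile of its p-value. This assumes that the authors ran DESeq2 with its default Wald test on the deposited log2 change. The step was run on data simulated under that same assumption, which checks the arithmetic only and cannot test the assumption. If it holds, the standard errors and 95% intervals cover the spread between libraries as the authors fitted it. Members, gene lists and motifs were chosen with earlier results of these data known. Named genes were all members and, of each list, the highest and lowest tested gene with reads in both groups at each time and any gene called in opposite directions by the authors' DESeq2 and edgeR runs. Further list genes (such as Acads, Acsl5, Crat, Mlycd, Pparg and Rxra) were named for their role after their values were seen. Some genes that the rule names are not reported here. Positions are from GENCODE M21 (GRCm38) and promoters from RefSeq (GRCm38.p6). Sequence sharing was counted over 50-base windows of all transcripts. Python 3.11.15, pandas 2.3.3, numpy 2.4.6, scipy 1.17.1 and matplotlib 3.10.9 were used. All 12 libraries were grouped by their titles.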

Additional observations from a re-analysis of the deposited data

How the results depend on the processing

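The members called lower numbered 7 at 4 h, 8 at 24 h and 9 at 3 d, and stayed within 1.5 times of that with edgeR, with adjustment over all genes and at a threshold of 0.01. A 2-fold minimum left 3, 3 and 0 lower and, at 4 h and 24 h, 0 higher, by construction. At 3 d baySeq alone, and agreement of all 3 methods, each left 4 lower. Of the 2 members higher at 4 h, edgeR left 0, baySeq 1 and agreement of all 3 methods 0, and of the 1 higher at 24 h each of these 3 left 0. The baySeq columns give no direction, so genes called by baySeq were given the sign of their DESeq2 log2 change. With edgeR 4 of 30 values reversed, Acadl at 4 h (-0.18) and 24 h (-0.12), Hadha at 4 h (-0.76) and Acadvl at 3 d (-0.10), the last called by neither tool. Hadhb at 4 h (-1.05 with edgeR) and Acadvl at 24 h (-0.48 with edgeR) were called with edgeR and baySeq but not with DESeq2. After centring the edgeR values on their median over all tested genes, no member differed from its DESeq2 value by more than 0.053, so these turns follow the scaling constant. No paired analysis was possible because the tables hold no values per library, and leaving out each replicate was not run for the same reason. Which scaling is nearer to the RNA content of the cells was not tested.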
